A study of Danio rerio with 4 samples.

Results

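Synaptic vesicles and secretory granules release transmitters and peptides through a shared set of proteins, and the array features for the genes of that set are described here. They were taken from the deposited annotation by name. A feature (the array's unit of measurement, tied to 1 transcript or sequence record in the annotation) was included when its zebrafish symbol, or its human ortholog name where the symbol was empty, began with syt, syn1, syn2, syp, sv2, snap25, vamp, stx, cplx, scg or chga. Of 37176 features, 96 met this rule, under 61 names. The zebrafish symbol brought in 31 in lower case and 13 in capitals, and the human ortholog name brought in 52. For 5 of them the human ortholog cell lists more than 1 gene, and 1 feature, SCGF, was found by its first letters only and is not a granin (-0.08 ± 0.23, log2 fold change and SE). A further 5 features fit only by a later name in the human ortholog cell and were left out.

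RNA came from whole zebrafish embryos of 2 genotypes, with 2 arrays each. Transgenic embryos carried Tg(hsp70-hRASG12V), a mutant human RAS gene under the hsp70 promoter, which heat switches on in cells throughout the embryo. Wild-type embryos carried no transgene. Embryos of both genotypes were grown at 28.5 °C and, from 24 hours after fertilization (hpf), spent 1 h at 37 °C as a heat shock. They then went back to 28.5 °C until collection at 30 hpf, in pools of 50 embryos per array. The design text calls the transgenic embryos heterogeneous and does not say which share of a pool carried the transgene. It also names 3 biological replicates, and 2 arrays per genotype were analysed here. Transgenic embryos without heat shock were not analysed here. Titles of the samples carry the tag ras for transgenic embryos and ab for wild-type embryos, and the labels do not explain either. Whether the genotypes shared a genetic background, clutch or handling is not given, and the design confounds any such difference with the transgene, so that they cannot be told apart. The p-values measure the spread between these pools.

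A synaptic vesicle carries VAMP (also called synaptobrevin) in its membrane, which winds together with syntaxin 1 and SNAP25 of the target membrane into a SNARE complex and so draws the membranes together. Complexin clamps the partly wound complex until synaptotagmin binds calcium and fusion follows. Synaptophysin and SV2 are abundant membrane proteins of the vesicle, synapsins tether vesicles in a reserve pool, and granins are the acidic cargo proteins around which dense-core granules of neurons and endocrine cells form. At the stage studied the first neurons of the brain, spinal cord and cranial ganglia have grown axons while most synapses have yet to form.

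Of the 96 features, 10 were higher in transgenic embryos, 1 was lower and 85 did not pass, with limma and an adjusted p of 0.05 over all features of the array. The share that was higher, 10.4% of the members, was near that over all features, of which 10.3% were higher (3830 features). The share that was lower, 1.04%, stood below that over all features, of which 7.28% were lower (2708 features). Counted without direction, 17.6% of all features passed. At a fold change of at least 2 beside the adjusted p, 2 members were higher and 1 was lower, against a background of 6.93% higher and 3.31% lower. By the q-values of the authors' deposited table, at 0.05, 49 members were higher and 19 lower, where 34.9% and 32.7% of all features were.

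The members lay slightly above the array as a whole. Their median log2 fold change (transgenic minus wild type) was 0.22, against 0.01 for all features, and single members ranged from -1.09 to 1.83. Of the members 59 had a value above 0, where 50.5% of all features did. Both transgenic arrays lay above both wild-type arrays for 48 members, against 34.4% of all features. Both lay below for 23 members, against 33.1% of all features, and the groups overlapped for the other 25. Quantile normalization moved the median of all features to -0.05 and that of the members to 0.14, and centring each array on its median moved them to -0.09 and 0.13. In RNA of whole embryos, more cells of a type and more RNA per cell cannot be told apart.

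**Figure D1:**
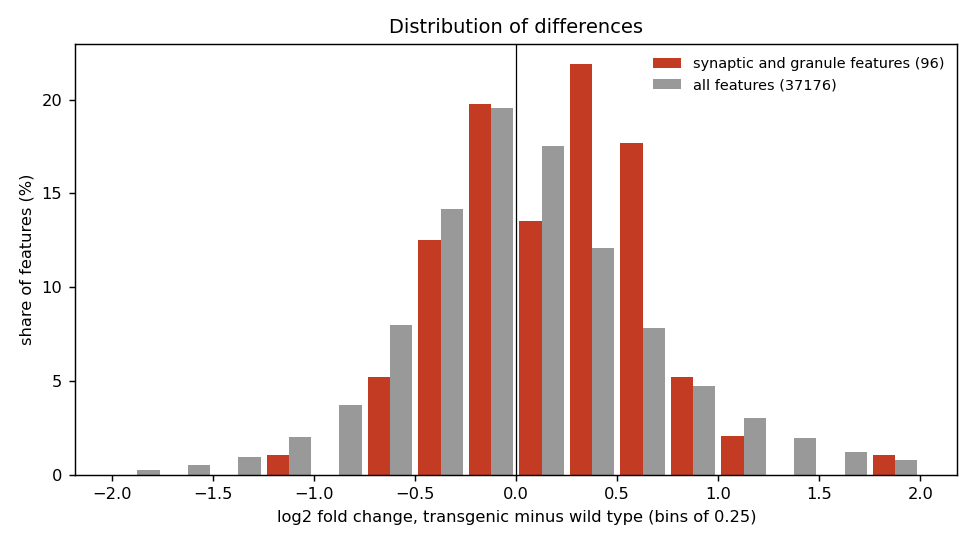
Share of features (%) in each bin of log2 fold change (transgenic minus wild type, bins of 0.25), for the 96 synaptic vesicle and granule features and for all 37176 features. The synaptic features are fuller between 0.25 and 0.75 and have 1 feature below -1, and features beyond -2 and 2 are not drawn.

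Array values here are as deposited and are read as log2 values. The lowest 25th percentile of an array was 7.05, and 11 of the 96 members had a group mean below it, where signal and background are hard to separate. None of those 11 passed (0 features, limma, with 3 at an unadjusted p of 0.05), so no called member had a group mean that low. Each value of a feature is compared across arrays only, since features of different genes differ in brightness for technical reasons.

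The families differed in how many of their features passed. Synaptotagmins had 6 of 18 features higher, 33.3%, with a median log2 fold change of 0.54, where 10.3% of all features were higher. Of the 6, 3 are features of SYT7, and another has an ortholog cell that also lists SHANK genes. VAMPs had 2 of 7 higher, with a median of 0.46. Complexins and granins had 1 higher each, of 6 and of 9, with medians of -0.15 and 0.08. The single lower feature was 1 of the 7 of the synaptophysin family. No feature passed among the 4 of SNAP25, the 4 of syntaxin 1, the 16 of other syntaxins, the 9 of syntaxin-binding proteins, the 8 of SV2, the 2 of synapsin and the 5 of synaptotagmin-like proteins (limma). At an unadjusted p of 0.05 these families had 1, 1, 5, 3, 1, 0 and 0 features in the same order. Over the whole array 13726 of the 37176 features reached that p (limma). Members were picked by name, so the differences among families are descriptions and were not tested.

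**Figure D2:**
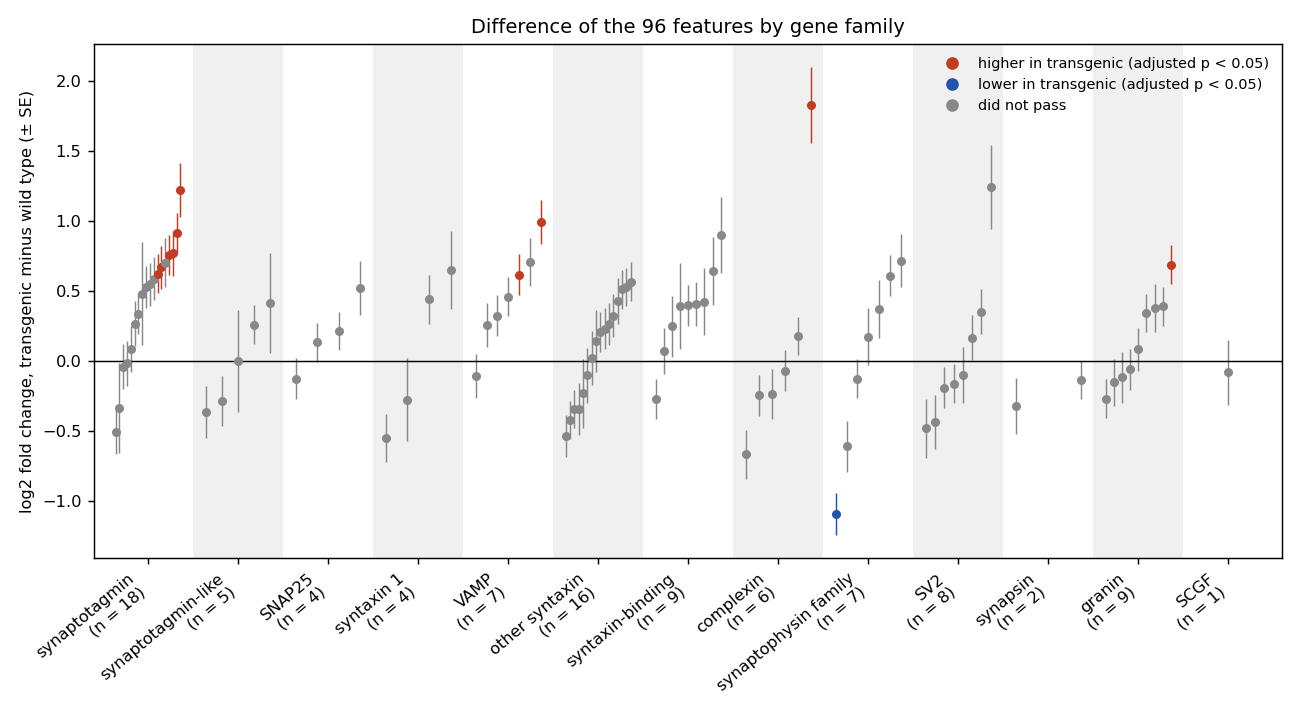
Log2 fold change (transgenic minus wild type) of each of the 96 features, grouped by gene family along the horizontal axis, with the standard error of the limma fit as bars and 2 arrays per genotype. Red points were higher and blue points lower in transgenic embryos at an adjusted p of 0.05, and grey points did not pass. The synaptotagmins hold 6 of the 10 red points, and the SNAP25, syntaxin and SV2 columns are all grey.

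Synaptotagmins bind calcium through paired C2 domains and couple it to fusion. SYT1, the fast calcium sensor of synchronous transmitter release, rose in transgenic embryos. Feature TC253483 of SYT1 read 12.63 and 12.67 on the transgenic arrays and 11.82 and 11.66 on the wild-type arrays. The groups lay apart by more than the replicates did, with a log2 fold change of 0.91 ± 0.14 (SE), which is 1.88-fold (adjusted p = 0.0223, limma). The other SYT1 feature, ZV700S00000312, read 10.67 and 10.71 on the transgenic arrays and 10.25 and 10.03 on the wild-type arrays. Its log2 fold change of 0.55 ± 0.15 had the same sign and did not pass (adjusted p = 0.0701). The feature annotated to human SYT2, a close relative of SYT1 that serves fast synapses of the hindbrain and spinal cord in mammals, had 0.52 ± 0.15 and did not pass either (adjusted p = 0.0745). RefSeq now gives its accession the symbol syt5b, and the features that RefSeq names syt2b, which are no members by the rule, had 0.77 ± 0.20, 0.09 ± 0.20 and -0.21 ± 0.28, none past the threshold.

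SYT7, a slower sensor of high calcium affinity that acts in asynchronous release and in granule and lysosome exocytosis, was the member measured by 3 features that all rose. ZV700S00001741 read 8.98 and 9.01 on the transgenic arrays and 8.30 and 8.18 on the wild-type arrays, a log2 fold change of 0.76 ± 0.14 (adjusted p = 0.0305, limma). TC263189 read 9.15 and 8.92 on the transgenic arrays against 8.39 and 8.34 on the wild-type arrays, 0.67 ± 0.16 (adjusted p = 0.0476). ZV700S00004655 read 8.15 and 8.07 on the transgenic arrays against 7.51 and 7.46 on the wild-type arrays, 0.62 ± 0.14 (adjusted p = 0.0436). In all 3 the lowest transgenic array stood above the highest wild-type array. The second and the last of them lost the call under quantile normalization and under median centring.

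SYT14, a synaptotagmin that lacks the calcium-binding residues, gave a mixed picture. Feature ENSDART00000100678 read 8.18 and 8.60 on the transgenic arrays against 7.17 and 7.16 on the wild-type arrays, a log2 fold change of 1.22 ± 0.19, or 2.33-fold (adjusted p = 0.0218, limma). The other 3 SYT14 features had values of -0.34, -0.04 and 0.48, none of which passed, so the rise rests on 1 of 4 features for the gene. Each of those 3 had a group mean under the 25th percentile, and the called feature did not. A feature whose ortholog cell reads SYT3 first and then SHANK3, SHANK2 and SHANK1 rose by 0.77 ± 0.16. It read 11.25 and 11.50 on the transgenic arrays and 10.53 and 10.68 on the wild-type arrays (adjusted p = 0.0395). SHANK proteins are scaffolds of the postsynaptic density, and which of these genes the feature measures cannot be read from the annotation.

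Among the remaining synaptotagmins, SYT17 (0.70 ± 0.17, adjusted p = 0.0541, limma) and syt11 (0.59 ± 0.15, adjusted p = 0.0600) came closest to the threshold. SYT17 lay under the 25th percentile in both genotypes, with means of 6.51 (transgenic) and 5.81 (wild type). SYT11, a non-calcium-binding form, had 2 further features at 0.27 and 0.33. SYT4, SYT13 and SYT15 had -0.02, 0.08 and -0.51, and none passed. The synaptotagmin-like proteins, which link Rab27 on granules to membranes, ranged from -0.36 for a feature of sytl3 to 0.41 for SYTL5. The means of both of these features lay under the 25th percentile in both genotypes.

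**Figure D3:**
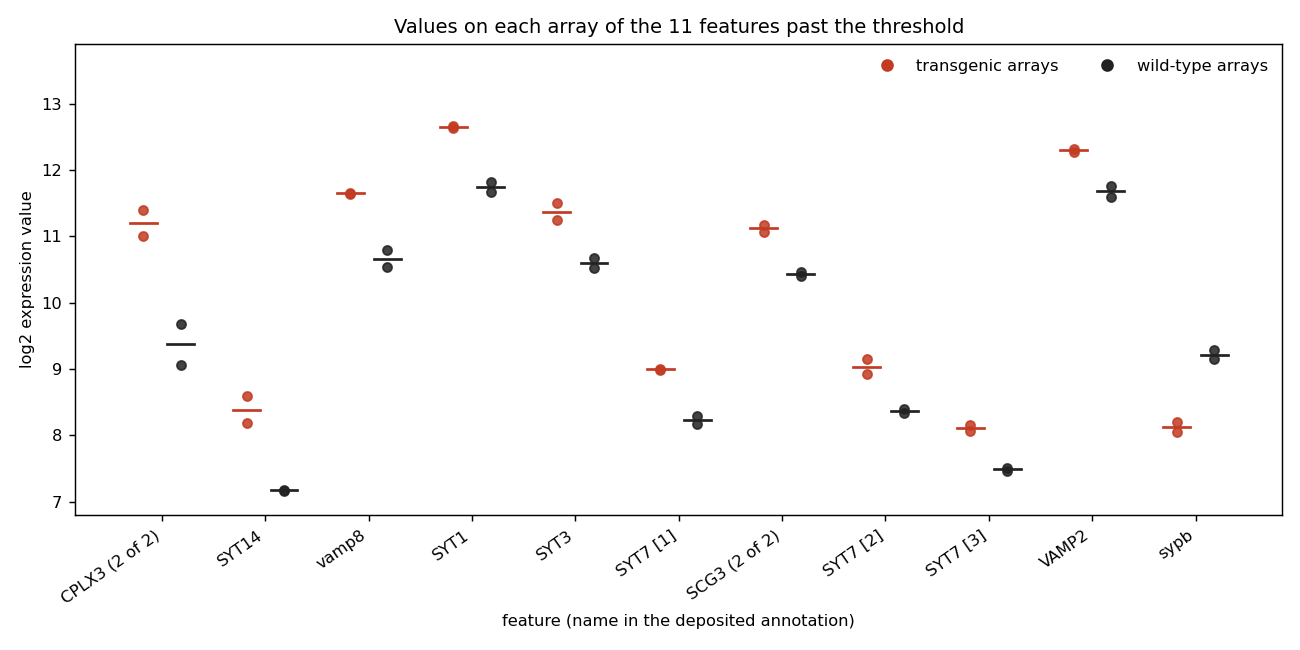
Log2 expression value on each of the 4 arrays for the 11 features past an adjusted p of 0.05, with a bar at each genotype's mean. The transgenic points lie above both wild-type points in the first 10 features and below them in sypb, and numbers in brackets mark the 3 features of SYT7 in the order of their fold change.

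The SNARE proteins of the target membrane did not pass. SNAP25, which gives 2 of the 4 helices of the neuronal SNARE complex, was measured by 4 features. snap25a had log2 fold changes of 0.13 ± 0.14 and -0.13 ± 0.15, and snap25b had 0.21 ± 0.14 and 0.52 ± 0.19, with adjusted p-values from 0.123 to 0.570 (limma). STX1A, the plasma membrane syntaxin of neurons, had 3 features that did not point 1 way: -0.55 ± 0.17, -0.28 ± 0.30 and 0.44 ± 0.17. The ortholog cells of the last 2 also list STX1B2. STX1B2, its close paralog, had 0.65 ± 0.28 (adjusted p = 0.167). Only 1 feature each of SNAP25 and syntaxin 1 lay at an unadjusted p under 0.05.

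The vesicle SNARE VAMP2 (synaptobrevin 2) was measured by 3 features of 1 sign. Feature ZV700S00003941 of VAMP2 read 12.27 and 12.32 on the transgenic arrays against 11.76 and 11.60 on the wild-type arrays, a log2 fold change of 0.61 ± 0.15, just past the threshold (adjusted p = 0.0494, limma). It lost the call under quantile normalization, under median centring and without wild-type replicate 2 (adjusted p = 0.0521). The feature with the zebrafish symbol vamp2 had 0.70 ± 0.17 (adjusted p = 0.0516) and feature ZV700S00002685 of VAMP2 had 0.46 ± 0.14 (adjusted p = 0.0841). A feature annotated first to VAMP1, the paralog of motor and sensory synapses, had 0.26 ± 0.16, but its ortholog cell also lists VAMP3, VAMP2 and others, and which of them it measures cannot be told. The VAMP4 features, for a SNARE of the trans-Golgi network, had -0.11 and 0.32.

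The VAMP feature with the smallest p was that of vamp8, which is not chiefly neuronal. vamp8 (endobrevin), a SNARE of endosomes, lysosomes and the regulated exocytosis of non-neuronal secretory cells, read 11.64 and 11.66 on the transgenic arrays against 10.79 and 10.53 on the wild-type arrays. The log2 fold change was 0.99 ± 0.16, or 1.98-fold (adjusted p = 0.0228, limma). Its human ortholog cell also lists BRRN1, an older name of the condensin subunit NCAPH, and ncaph lies beside vamp8 on chromosome 5 in the RefSeq annotation. The features of ncaph itself had -0.33 ± 0.19 and 0.03 ± 0.14 and did not pass.

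Syntaxins outside the synapse serve other membranes. Of their 16 features none passed, and 8 had both transgenic arrays above both wild-type arrays against 4 with both below. The shares over all features were 34.4% and 33.1%, and with 16 features the difference was not tested. stx5a, a Golgi syntaxin, had 0.57 ± 0.14 (adjusted p = 0.0520, limma) and its relative stx5al had -0.42. A further feature, annotated to human STX5, had -0.34 ± 0.14. STX3, the syntaxin of ribbon synapses and apical membranes, had 0.53 ± 0.14 and 0.51 ± 0.14 in its 2 features (adjusted p = 0.0596 and 0.0667, limma). The second of them lay under the 25th percentile in both genotypes, with means of 5.67 (transgenic) and 5.16 (wild type). STX18, a syntaxin of the endoplasmic reticulum, was the lowest of the group at -0.54 ± 0.15 (adjusted p = 0.0677).

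Complexins held the largest rise and 1 of the lowest values among the members. CPLX3 (2 of 2), a gene for a complexin best known from ribbon synapses of the retina in mammals, read 11.00 and 11.40 on the transgenic arrays against 9.06 and 9.68 on the wild-type arrays. The log2 fold change was 1.83 ± 0.27, or 3.54-fold (adjusted p = 0.0199, limma), and it stayed between 1.52 and 2.13 when any 1 array was left out. CPLX1, the complexin of fast central synapses, ran the other way without passing. It read 8.82 and 9.08 on the transgenic arrays and 9.50 and 9.73 on the wild-type arrays, -0.67 ± 0.17 (adjusted p = 0.0616). The 4 features of cplx2 had -0.25, -0.23, -0.07 and 0.17, with standard errors from 0.14 to 0.18, and none passed.

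The syntaxin-binding proteins did not pass, and 8 of their 9 features had values above 0, where 50.5% of all features did. STXBP5 (2 of 2), a tomosyn, which occupies syntaxin and SNAP25 in place of VAMP, had 0.90 ± 0.27, 0.39 ± 0.31 and 0.25 ± 0.22. In the first of these the transgenic arrays read 8.89 and 8.95 and the wild-type arrays 7.65 and 8.39, so that most of the spread lay between the wild-type arrays. STXBP5L, a second tomosyn, had 0.42, the STXBP6 features had 0.07 and 0.64, and STXBP3, which acts largely outside neurons, had -0.27.

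Among the membrane proteins of the vesicle, the synaptophysin paralog sypb held the only lower feature and, beside it, a feature with a positive value. Feature OTTDART00000025679 of sypb read 8.20 and 8.05 on the transgenic arrays against 9.14 and 9.29 on the wild-type arrays, a log2 fold change of -1.09 ± 0.15 (adjusted p = 0.0176, limma). Feature OTTDART00000025680 of sypb read 11.32 and 11.15 on the transgenic arrays against 10.71 and 10.33 on the wild-type arrays, 0.72 ± 0.19 (adjusted p = 0.0625). The annotation gives these features neighbouring transcript numbers and the same ortholog, SYP. Their mean gave -0.19 with an adjusted p of 0.391, and no direction is given for the gene. The paralog sypa had 0.61 ± 0.15 (adjusted p = 0.0507) and 0.37 ± 0.21, and a feature named SYP had -0.61 ± 0.18 (adjusted p = 0.0822). The features of the related sypl, a synaptophysin-like protein of many tissues, had -0.13 and 0.17. One of the features left out for a later name, annotated to SYNPR first and SYP second, was higher by 0.85 ± 0.18 (adjusted p = 0.0378), with 13.08 and 13.01 on the transgenic arrays against 12.37 and 12.01 on the wild-type arrays.

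SV2A, a transporter-like vesicle glycoprotein needed for normal release, had the second largest log2 fold change of the members, 1.24 ± 0.30, and narrowly failed the test (adjusted p = 0.0513, limma). It read 11.27 and 11.40 on the transgenic arrays and 9.68 and 10.51 on the wild-type arrays. Both transgenic arrays were higher, and the wild-type arrays lay 0.83 apart. SV2B, its paralog, had 6 features between -0.43 and 0.35 and a further one, SV2B (2 of 3), at -0.48 ± 0.21, whose ortholog cell reads SV2A, and none passed. The 2 SYN2 features, for a synapsin, had -0.14 ± 0.14 and -0.32 ± 0.20.

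Features that share a name could be set side by side for 22 names. In 14 of them all features had 1 sign and in 8 the signs differed. SYT7, SYT1 and VAMP2 were among the first kind, and SYT14, sypb, STX1A, snap25a, cplx2, SV2B and SCG3 among the second.

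**Figure D4:**
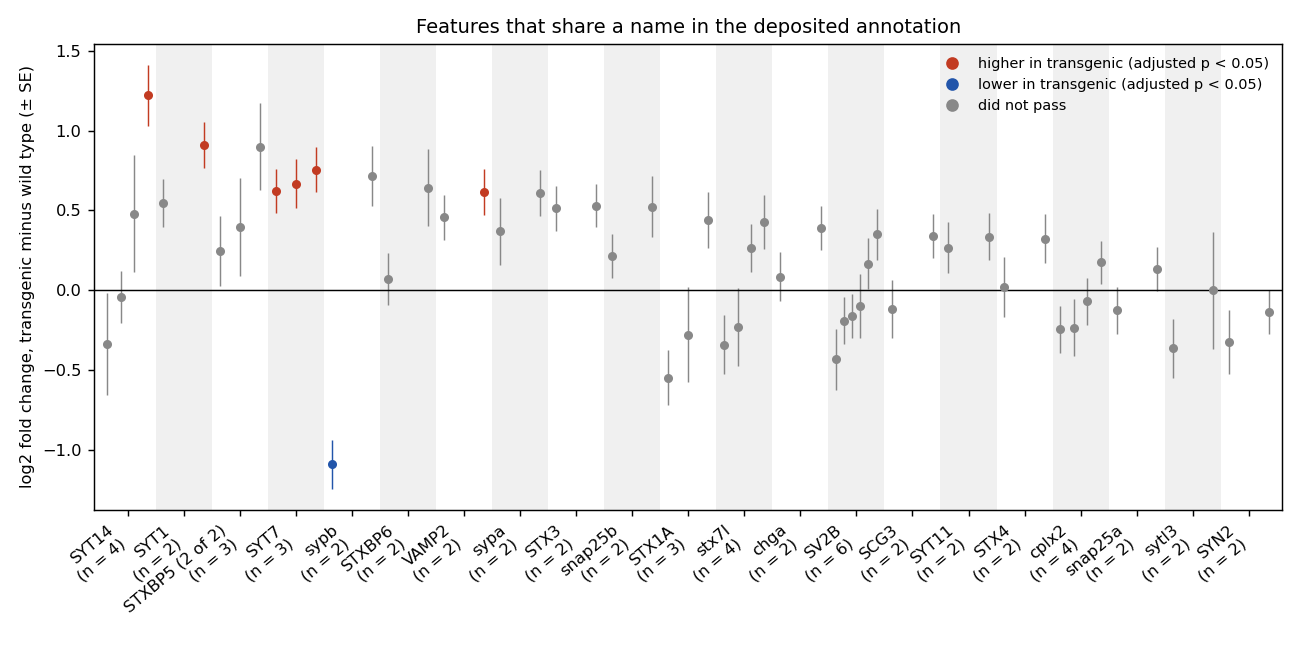
Log2 fold change (transgenic minus wild type) of features whose name has more than 1 feature (1 such name is not drawn), with the standard error of the limma fit as bars. Red points were higher and blue points lower at an adjusted p of 0.05. The 3 features of SYT7 lie together, and the features of sypb lie on either side of 0.

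Granins gave 1 call. SCG3 (2 of 2), one of the zebrafish genes for secretogranin III, which brings chromogranin A to the granule membrane, read 11.06 and 11.18 on the transgenic arrays against 10.40 and 10.46 on the wild-type arrays. The log2 fold change was 0.69 ± 0.14 (adjusted p = 0.0369, limma), and the call was lost under median centring (adjusted p = 0.0503). The other features for secretogranin III had 0.34 ± 0.14, -0.12 ± 0.18 and -0.06 ± 0.15 and did not pass. Chromogranin A, the granin that drives granule formation in endocrine cells, had 0.38 ± 0.17 for CHGA and 0.39 ± 0.14 and 0.08 ± 0.15 for chga. Features of secretogranin V, the 7B2 chaperone of the prohormone convertase PCSK2, had -0.15 ± 0.17 for SCG5 and -0.27 ± 0.14 for scg5.

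Further features of the same families carried other names in the file and were recognised through the RefSeq gene table, 59 in all. They are no members by the rule and were looked up with the members' values known. Of these, 6 were higher and 3 were lower, 10.2% and 5.08%, where 10.3% and 7.28% of all features were. The median log2 fold change of the 59 was 0.10. Both secretogranin II genes were among the 6. scg2a read 13.28 and 13.32 on the transgenic arrays against 12.35 and 12.67 on the wild-type arrays, 0.79 ± 0.17 (adjusted p = 0.0396, limma), and scg2b rose by 1.32 ± 0.18 (adjusted p = 0.0172). Secretogranin II is a granule cargo from which the peptide secretoneurin is cut.

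Calcium sensors and a synapsin were also among those 6, while most synaptotagmin features under other names did not pass. syt1a had 11.37 and 11.41 on the transgenic arrays against 10.75 and 10.78 on the wild-type arrays, 0.63 ± 0.14 (adjusted p = 0.0413, limma). syt7a had 8.02 and 8.20 on the transgenic arrays against 6.74 and 7.15 on the wild-type arrays, 1.17 ± 0.20 (adjusted p = 0.0250, limma). Its wild-type mean of 6.94 lay under the 25th percentile. The features of syt1b, the paralog of syt1a, had 0.26 ± 0.14 and 0.40 ± 0.44 and did not pass. Their means lay under the 25th percentile in both genotypes. Other synaptotagmin features under other names ranged from -0.74 for syt10 to 0.77 for syt2b, and none of them passed. That syt10 feature also had means under the 25th percentile in both genotypes. The RefSeq symbol of a further feature is syn1, though its human ortholog cell reads SYN3, and it had 9.98 and 10.24 on the transgenic arrays against 8.45 and 8.94 on the wild-type arrays. Its log2 fold change was 1.41 ± 0.22 (adjusted p = 0.0220), while the 2 SYN2 features had values below 0.

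The largest value in these families belonged to 1 feature of stxbp5a, a tomosyn gene. OTTDART00000030326 read 8.29 and 8.26 on the transgenic arrays against 4.71 and 5.73 on the wild-type arrays, 3.06 ± 0.35 (adjusted p = 0.0131, limma). Both wild-type arrays lay under the 25th percentile, so the fold depends on a signal near the bottom of the range. Another stxbp5a feature, OTTDART00000006017, had 0.56 ± 0.14 (adjusted p = 0.0566), and the last one had 0.38 ± 0.23 (adjusted p = 0.299). Of the 3 lower features, 2 belonged to stxbp6l, whose human relative amisyn binds syntaxin, with -0.99 ± 0.16 and -1.16 ± 0.26 (adjusted p = 0.0226 and 0.0452). The other stxbp6l features had -0.38 and 0.13 and did not pass. The last lower feature was that of stx11b.2, a syntaxin of leukocyte granules in mammals, with -0.81 ± 0.17 (adjusted p = 0.0368). All values of stxbp6l lay under the 25th percentile of the arrays.

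Likeness to scg2b was measured as the root mean square difference over the 4 arrays after each feature was centred on its mean. The 5 members most like it were SV2A (0.171), SYT14 feature ENSDART00000100678 (0.209), the STXBP5 (2 of 2) feature with the value of 0.90 (0.25), SYT1 feature TC253483 (0.279) and vamp8 (0.280). With 4 arrays of 2 genotypes this measure mostly follows the size of the difference between genotypes.

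The partners of these proteins were read from 5 lists of other genes, with 236 features in all. Of these, 18 were higher and 10 lower, 7.63% and 4.24%, with a median log2 fold change of 0.11, against 10.3%, 7.28% and 0.01 over all features. Of the lower features 4 belong to dcxr, a sugar reductase placed on a list in error, and without it 18 of 232 features were higher and 6 lower, 7.76% and 2.59%. The release machinery, which docks and primes vesicles, had 4 of 46 features higher and 1 lower, with a median of 0.28. unc13a (Munc13), which opens syntaxin for priming, read 10.96 and 11.12 on the transgenic arrays against 9.44 and 9.75 on the wild-type arrays, 1.45 ± 0.17 (adjusted p = 0.0139, limma). Its other feature, annotated to UNC13B, had 0.40 ± 0.15 and did not pass. rims3, a gene for a small RIM of the active zone, rose by 1.21 ± 0.26 in 1 of its 2 features (adjusted p = 0.0390, limma). The ortholog cell of that feature reads RIMS1. The other rims3 feature, whose cell reads RIMS3, had 0.90 ± 0.27 and did not pass (adjusted p = 0.0850). Of the CAPS proteins, which prime dense-core granules, cadpsb rose by 1.35 ± 0.30 (adjusted p = 0.0433) and CADPS2 fell by 0.91 ± 0.17 on the log2 scale in 1 of its 2 features (adjusted p = 0.0287), with -0.56 ± 0.23 in the other.

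The largest change in the release machinery was in snap23.2, a gene for the widely expressed relative of SNAP25. It read 9.67 and 9.82 on the transgenic arrays against 7.89 and 7.41 on the wild-type arrays, 2.09 ± 0.21, or 4.27-fold (adjusted p = 0.0107, limma). The 3 features of its paralog snap23.1 had 0.29 ± 0.14, 0.30 ± 0.16 and 0.09 ± 0.19 and did not pass. In mammals SNAP23 pairs with VAMP8 in the exocytosis of non-neuronal cells, and the vamp8 feature was described above.

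Vesicle membrane and transporter genes had 3 of 40 features higher and 0 lower, with a median of -0.03. The higher share was 7.5%, where 10.3% of all features were higher and 7.28% lower. slc17a9a, for the vesicular nucleotide transporter, had 10.26 and 10.39 on the transgenic arrays against 8.51 and 8.45 on the wild-type arrays, 1.85 ± 0.14 (adjusted p = 0.00911, limma). slc17a6a, for a vesicular glutamate transporter of excitatory neurons, rose by 0.95 ± 0.19 (adjusted p = 0.0357), and scamp5a, for a secretory carrier membrane protein of synaptic vesicles, by 0.68 ± 0.16 (adjusted p = 0.0480). The slc17a6b features had 0.60 ± 0.26 and 0.46 ± 0.22, those annotated SLC17A6 had 0.25 ± 0.31 and -0.09 ± 0.17, and none passed. A feature annotated SCAMP5 had 0.67 ± 0.16 (adjusted p = 0.0502, limma) and scamp5b had -0.20 ± 0.18, and neither passed.

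Vesicle endocytosis, which retrieves membrane after fusion, had 5 of 68 features higher and 2 lower, with a median of 0.13. These shares were 7.35% and 2.94%, against 10.3% and 7.28% over all features. The SH3GL2 (endophilin A1) features past the threshold, for a protein that bends the neck of the budding vesicle, were 2 and both rose, by 1.05 ± 0.20 and 1.61 ± 0.34 (adjusted p = 0.0333 and 0.0395, limma), while its other 2 features had 0.24 and 0.30 and did not pass. sh3gl3a, for another endophilin, fell. It read 12.13 and 12.27 on the transgenic arrays against 13.39 and 13.39 on the wild-type arrays, -1.19 ± 0.14 (adjusted p = 0.0137). itsn2a, for an intersectin scaffold, rose by 1.30 ± 0.26 in 1 of its 4 features (adjusted p = 0.0356, limma), with the others at 0.17, 0.66 and 0.69. The called itsn2a feature read 7.89 and 8.11 on the transgenic arrays against 6.37 and 7.03 on the wild-type arrays. Both wild-type values lay under 7.05, the level given above below which signal and background are hard to separate. EPS15L1, for a clathrin adaptor, rose by 0.92 ± 0.19 (adjusted p = 0.0367, limma).

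Genes that process granule cargo had 0 of 35 features higher and 5 lower, where 10.3% and 7.28% of all features were. Of the 5, 4 are the features of dcxr, and the last is the CADPS2 feature given above. Without dcxr the list had 31 features with 0 higher and 1 lower and a median of 0.10 (limma). The prohormone convertase pcsk1, which cuts peptide precursors in granules, had the largest value, 1.38 ± 0.45, and did not pass (adjusted p = 0.0976). The trimming enzyme cpe had 0.65 ± 0.22, a feature annotated CPE had -0.22 ± 0.27 and pcsk2 had 0.10 ± 0.18, and none of these passed.

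Peptides carried by granules had 6 of 49 features higher and 3 lower, with a median of 0.07. These shares, 12.2% and 6.12%, were near those over all features, 10.3% and 7.28%. pyyb, for a peptide YY, read 11.40 and 11.67 on the transgenic arrays against 9.49 and 9.28 on the wild-type arrays, 2.15 ± 0.17, or 4.44-fold (adjusted p = 0.00911, limma). cart3, for a CART peptide of feeding and stress circuits, and pdyn, for the opioid precursor prodynorphin, rose by 1.21 ± 0.15 and, in feature OTTDART00000026957 of pdyn, by 1.16 ± 0.18 (adjusted p = 0.0148 and 0.0226). The other pdyn features had 0.87 ± 0.25 (adjusted p = 0.0721) and -0.08 ± 0.23 and did not pass. ucn3l, for a urocortin of the corticotropin-releasing family, read 6.09 and 6.12 on the transgenic arrays against 7.38 and 7.52 on the wild-type arrays, -1.34 ± 0.14 (adjusted p = 0.0114), with the transgenic arrays under the 25th percentile.

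**Figure D5:**
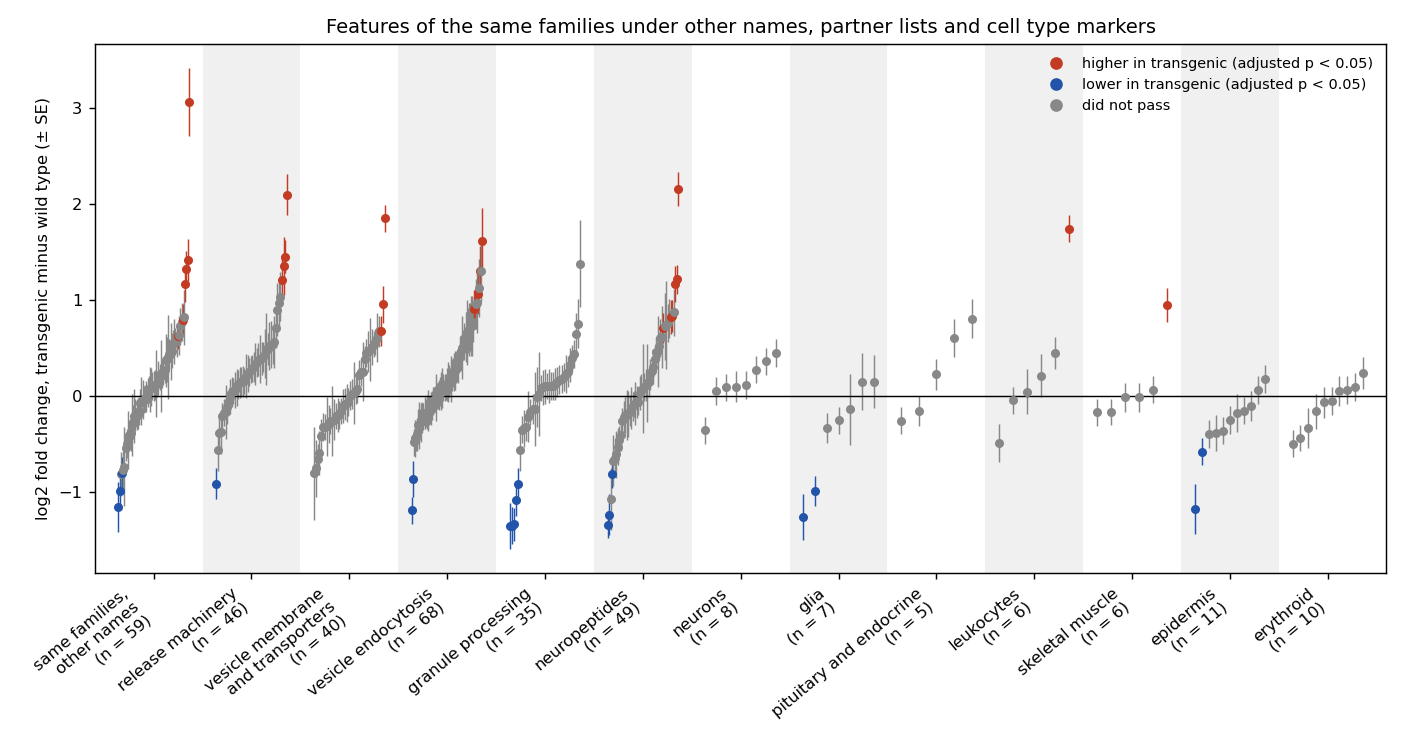
Log2 fold change (transgenic minus wild type) of the 59 features of the same families under other names, of the 5 lists of partner genes and of the 7 lists of cell type markers, with the standard error of the limma fit as bars. Red points were higher and blue points lower at an adjusted p of 0.05. All 8 neuron markers are grey, and the 4 lowest points of granule processing are dcxr.

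General markers of neurons gave few features to set beside the synaptic features. The list of 11 symbols matched 8 features of 4 genes, of which 0 passed (limma, with 2 at an unadjusted p of 0.05). Over all features 10.3% were higher and 7.28% lower, so 0 of 8 says little. Values ran from -0.36 to 0.45 with a median of 0.10, and 7 of the 8 lay above 0, where 50.5% of all features did. Both transgenic arrays lay above both wild-type arrays for 5 features and below them for 1, against 34.4% and 33.1% of all features. The mean level of the neuron markers was 11.74 and 11.68 on the transgenic arrays and 11.57 and 11.59 on the wild-type arrays. stmn2a, for a stathmin of growing axons, had the highest value in its feature OTTDART00000028257, 0.45 ± 0.15 (adjusted p = 0.0968). The matched genes were stmn2a, stmn2b, isl1 and tubb5, and elavl3, elavl4 and gap43 were not matched by name and are not analysed here. Of the 8 features 0 had a group mean under the 25th percentile.

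Markers of other cells differed as follows, and their part in the values of the synaptic features was not tested. Glia had 0 of 7 features higher and 2 lower, fabp7a of radial glia at -1.26 ± 0.24 and plp1b, a myelin proteolipid relative whose ortholog cell reads GPM6B, at -0.99 ± 0.16 in feature OTTDART00000021575. The other 3 plp1b features had -0.14, 0.14 and 0.15 and did not pass, and the called one read 6.71 and 6.70 on the transgenic arrays, under the 25th percentile, against 7.82 and 7.57 on the wild-type arrays. The glial mean level was 8.59 and 8.49 on the transgenic arrays against 8.77 and 9.08 on the wild-type arrays. Pituitary and endocrine markers had 0 of 5 past the threshold, and their mean level was 6.51 and 6.40 on the transgenic arrays against 6.34 and 6.09 on the wild-type arrays, with prl at 0.80 ± 0.20 (adjusted p = 0.0579, limma). Leukocyte markers had 1 of 6 higher, csf1ra, a receptor also of pigment cells whose ortholog cell reads KIT, at 1.74 ± 0.14. The csf1ra feature read 8.52 and 8.57 on the transgenic arrays against 6.87 and 6.75 on the wild-type arrays, the latter under the 25th percentile. The leukocyte mean level was 8.16 and 8.22 on the transgenic arrays against 7.98 and 7.77 on the wild-type arrays. Skeletal muscle had 1 of 6 higher, epidermis 2 of 11 lower and erythroid cells 0 of 10 past the threshold. Beside 10.3% higher and 7.28% lower over all features, the counts from lists this short say little.

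Wild-type replicate 1 was the lowest of the 4 arrays for 26 of the 96 members and for 11319 of all 37176 features. It was the lowest for 10 of the 13 members whose symbols are in capitals, CPLX3 (2 of 2) and SV2A among them, and for 27 of the 46 features of the release machinery. Without it 9 of the 11 called members were still past the threshold, and the SYT3 feature (adjusted p = 0.0533) and SYT7 feature TC263189 (adjusted p = 0.0511) were not. Without wild-type replicate 2 it was 10 of 11, with VAMP2 lost. The median log2 fold change of the members was 0.18 without wild-type replicate 1 and 0.21 without wild-type replicate 2, against 0.22 with all arrays. For all features it was -0.0009, 0.02 and 0.01 in the same order. The median of the members was 0.25 without transgenic replicate 1 and 0.18 without transgenic replicate 2, against 0.001 and 0.01 for all features. A single transgenic array has no spread of its own, so only the effect sizes are given for these fits. The spread then came from the wild-type arrays alone, and the number of arrays limits the precision of every value here.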

How the data were processed

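The authors deposited log2 expression values of 37176 features on 4 Cy3-labelled NimbleGen arrays, with a log2 fold change and a q-value of their own per feature, per the file headers. Base 2 is an inference from how high the values reach. How probes were summarised and normalised, and which test gave the q-values, is not stated in the labels or headers. Batches could not be tested, since no slide or scan date is recorded, and there are no detection calls. The authors' fold change matched the group means. The human transgene was not looked for among the features and is not analysed here.

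Members were found by the name rule in the deposited annotation. Names of further features came from the RefSeq gene table of GRCz12tu, used for names and neighbours only. Transgenic minus wild type was estimated with lmFit and eBayes of limma 3.58.1 (R 4.3.3) on the values as deposited, without a block, with the Benjamini-Hochberg adjustment across the whole table. A feature passed at an adjusted p of 0.05. The script was tested on simulated data. The members, the 5 partner lists and the 7 marker lists were chosen with earlier results of these data known. Named were all members past the threshold, the core members of each family whatever their values (1 gene is not reported here), per list up to 4 features past the threshold with the smallest p or else the 1 with the smallest p, and the 5 members most like scg2b. stx11b.2, stxbp5a, stxbp6l, syn1, syt1a, syt7a, scg2a, ncaph, snap23.1, cpe, pcsk2 and other features near the threshold were named after their values were seen. The alternatives are listed with their effect in the closing section, and those on how members are defined were chosen after seeing the data.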

Additional observations from a re-analysis of the deposited data

How the results depend on the processing

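Of the 96 members, 10 were higher and 1 was lower. The lower count is small, so that single features move it. Quantile normalization gave 7 higher and 2 lower, and median centring gave 6 and 3. Without features below the 25th percentile of mean level it was 19 and 3, and without those below the median 14 and 3. The other values were 18 and 3 with a trend in eBayes, 9 and 1 with a robust prior and 17 and 3 with log2(value + 50). An adjusted p of 0.10 gave 23 and 7, the authors' deposited q-values at 0.05 gave 49 and 19, and a 2-fold change beside the adjusted p gave 2 and 1. Leaving out each array in turn gave 0 to 17 higher and 0 to 6 lower. Adding features by their current RefSeq symbol, which was chosen after seeing the data, gave 16 and 4, while later human names (11 and 1), lower-case symbols only (8 and 1) and leaving out features of several human names (9 and 1) stayed near 10 and 1. Of the 11 called members, 8 passed under quantile normalization, 7 under median centring and 9 with a trend. Of the partner features, 18 were higher and 10 lower, and 18 and 6 without dcxr, left out after seeing the data. Without features below the 25th percentile 31 were higher, with a trend 37, at an adjusted p of 0.10 38 and 16 lower, by the authors' deposited q-values 100 and 53 lower, and at 2-fold 11. Leaving out each array gave 0 to 54 higher and 0 to 20 lower. Calls over all features moved under the normalization, filter, eBayes and left-out-array settings as well, but not always in the direction of the member counts. They were 6538 in the main fit, 6843 under quantile normalization and 6946 under median centring. Under these 2 normalizations the count of higher members fell from 10 to 7 and 6. Without features below the 25th percentile 7175 of all features passed, and 9291 with a trend. The cause of these moves was not tested beyond what each setting does to the number of features tested or to the threshold.

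The labels number the arrays 1 and 2 in each genotype without saying that the numbers pair them, and the deviations of same-numbered arrays correlated at 0.206 over features, with only 2 arrays per genotype. With the replicate block 10 members were higher and 2 lower, and 26 partner features were higher and 13 lower. Of the 11 called members 8 passed with the block, and VAMP2 feature ZV700S00003941 and SYT7 features TC263189 and ZV700S00004655 did not.

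Values that changed sign all belonged to features that did not pass. As the mean of a gene's features, snap25a was 0.0034, cplx2 -0.0939 and sypb -0.19. With each array left out in turn, STX1A feature TC251450 ranged from -0.67 (without wild-type replicate 2) to 0.12 (without wild-type replicate 1), and SCG3 feature ZV700S00000302 from -0.30 to 0.0646 by the same arrays. By the transgenic arrays, cplx2 feature OTTDART00000023962 ranged from -0.16 (without replicate 2) to 0.0181 (without replicate 1), SV2B feature NM_001082995 from -0.33 to 0.13, and chga feature OTTDART00000005686 from -0.0041 to 0.17. That chga feature was -0.0023 under quantile normalization and -0.0088 under median centring. With 2 arrays per genotype, the test did not separate most members from the spread between arrays. At an unadjusted p under 0.05 (limma) lay 34 of the 96 members and 13726 of all 37176 features.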
